A study of Mus musculus with 12 samples.

Results

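The calcium/calmodulin-dependent protein kinases (CaM kinases) were examined in RNA bound to tagged ribosomes of CA1 pyramidal neurons, in wild-type animals and in Fmr1-/y mice that lack FMRP. The genes were the 10 rows of the count table with the symbols Camk2a, Camk2b, Camk2d, Camk2g, Camk4, Camkk1, Camkk2, Camk1, Camk1d and Pnck, out of 24079 genes in all. All 10 passed the filter on low counts, which removed genes with fewer than 15 reads over the 12 libraries together and left 17823. There were 6 libraries of each genotype. Each was a biological replicate made from a separate pool of 4 to 6 adult mice, aged 2 to 6 months and described by the study as C57BL/6J. All animals of both genotypes carried Wfs1-CreERT2 and the RiboTag allele and received tamoxifen at 100 mg/kg for 3 days, and tissue was taken 1 week later. Fmr1 is X-linked, and the Fmr1-/y and Fmr1+/y animals of the breeding scheme were males. In these mice the Wfs1 promoter drives an inducible Cre, and Cre activity makes a cell add an HA tag to the ribosomal protein Rpl22. The tag was pulled down from whole hippocampus, so the selection of CA1 neurons rests on where the Wfs1 transgene is active. The paper reports HA staining in CA1 pyramidal cells and none in CA2 pyramidal, GABAergic, astrocyte or microglial cells. By qRT-PCR of the pulldown against input, it found Wfs1 and Slc1a1 enriched and GABAergic and glial markers depleted. No input RNA was analysed here. A level of ribosome-bound mRNA depends on both the amount of the mRNA and its ribosome occupancy. In these bulk samples fewer cells of a type and less RNA per cell cannot be told apart.

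CaM kinases turn a rise in calcium into protein phosphorylation. Calcium-loaded calmodulin binds next to the catalytic domain and frees it from an autoinhibitory segment. CaMKII is a large holoenzyme built from alpha, beta, gamma and delta subunits, abundant at excitatory synapses and required for the long-term potentiation of CA3 to CA1 synapses. Once active, its subunits phosphorylate each other on a threonine of the autoinhibitory segment, which keeps the kinase active after calcium has fallen. The second branch is a cascade: the CaM kinase kinases CaMKK1 and CaMKK2 phosphorylate a threonine in the activation loop of CaMKI and CaMKIV. CaMKIV then acts mostly in the nucleus on the transcription factor CREB, and CaMKI on the cytoskeleton, axon growth and dendrites. Pnck is the beta isoform of CaMKI. FMRP, the product of Fmr1, is an RNA-binding protein that represses translation of many synaptic mRNAs, and the Camk2a mRNA is among its best known targets.

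These threonines are the regulatory phosphorylation sites of the 2 branches. The coding sequence around each is shown for family members, since the members are told apart in sequencing by such differences between related mRNAs. Sequences are from GENCODE transcripts on GRCm38, the same build as mm10, 5′ to 3′ on the coding strand, with the threonine codon in capitals and codons counted from 1 at the start codon. The first 3 cover the autophosphorylated threonine of CaMKII and the other 3 the CaMKK-phosphorylated threonine of CaMKI. Those of Camk2b (chr11:5988976-5989020, minus strand, exon 11, codon 287), Camk2d (chr3:126797720-126797764, plus strand, exon 11, codon 287) and Camk2g (chr14:20760418-20760462, minus strand, exon 11, codon 285 of the transcript used) were:
Camk2b: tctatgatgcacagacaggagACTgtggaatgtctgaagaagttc
Camk2d: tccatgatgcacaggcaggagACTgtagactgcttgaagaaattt
Camk2g: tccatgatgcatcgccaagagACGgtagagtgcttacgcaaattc
Those of Camk1 (chr6:113338284-113338328, minus strand, exon 6, codon 177), Camk1d (chr2:5354673-5354717, minus strand, exon 5, codon 180) and Pnck (chrX:73657724-73657768, minus strand, exon 6, codon 171) were:
Camk1: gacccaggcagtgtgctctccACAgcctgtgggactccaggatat
Camk1d: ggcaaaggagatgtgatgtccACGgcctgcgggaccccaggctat
Pnck: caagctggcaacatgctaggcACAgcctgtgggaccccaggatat
Over these 45 bases, Camk2b and Camk2d were identical at 37 positions, Camk2d and Camk2g at 34, and Camk2b and Camk2g at 30. Among the CaMKI genes, Camk1 and Pnck were identical at 34 positions, Camk1 and Camk1d at 33, and Camk1d and Pnck at 28.

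The transcripts of each member were searched for exact read-length stretches shared with other genes. Of all stretches of 50 bases, the read length, in the transcripts of each gene, none was found in a transcript of another gene for 9 of the 10 genes, and 0.335% were for Camk2a (19 of 5665). Stretches that differ by a few bases were not searched, and the authors' alignment allowed some mismatches. Camk1 overlaps Ogg1 on the opposite strand, and Camk2d and Camk4 overlap antisense models, but the authors counted only reads of the gene's own strand.

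Levels are read counts relative to library size (CPM), scaled with the TMM method of edgeR, which sets libraries to a common effective size. The quasi-likelihood test of edgeR compared the genotypes on the counts, with Benjamini-Hochberg adjustment over all 17823 genes and a threshold of 0.05. Differences are log2 values of Fmr1-/y minus wild type with their standard error (SE), and n is 6 libraries per genotype throughout. The libraries held 39400980 to 55745464 counted reads in wild type and 43106629 to 65565479 in Fmr1-/y. In wild type, Fmr1 itself had 1971 to 2608 reads per library, and in Fmr1-/y it had 0 reads in 5 libraries and 1 read in the other. None of the 5 CA1 markers was at 0 over the libraries together, and their summed CPM was 1747 to 2371 in wild type and 1621 to 2108 in Fmr1-/y. No marker of 9 other hippocampal or non-neuronal types was at 0 over the libraries. Of those lists, the choroid plexus genes, 3 in number, summed to 6177 to 11580 CPM over wild-type libraries and 8102 to 17020 over Fmr1-/y ones. The oligodendrocyte list (5 genes) summed to 1032 to 1524 CPM in wild type and 935.7 to 1405 in Fmr1-/y. The astrocyte list (5 genes) summed to 697.8 to 845.8 and 762.5 to 1188 CPM. RNA of other cell types was thus in the libraries, and its part in the kinase levels was not tested.

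None of the 10 CaM kinase genes passed the adjusted threshold in edgeR, where 0.0224% of all genes tested did. Pnck was the 1 gene with an unadjusted p under 0.05, a level reached by 7.96% of all genes (3.67% with the lower mean in Fmr1-/y and 4.29% with the higher). The log2 difference was positive for 5 genes and negative for 5, with a median of -0.003 against 0.0042 over all genes. In DESeq2's Wald test, the tool of the study, Pnck alone passed, beside 0.571% of the genes given an adjusted p. No member had genotypes without overlap between libraries, which 0.623% of all genes had.

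**Figure D1:**
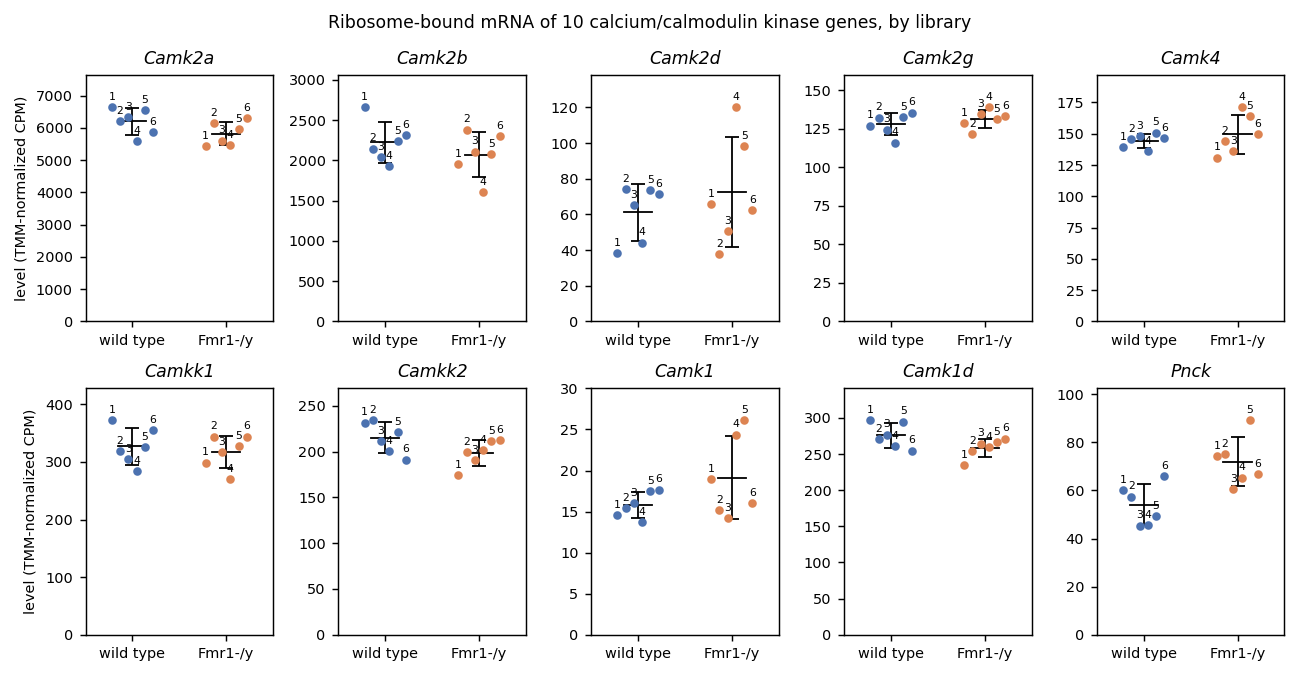
TMM-normalized CPM of each gene (vertical axes, linear and starting at 0) in the 6 wild-type (blue) and 6 Fmr1-/y (orange) libraries, numbered by replicate, with mean and SD in black. The genotypes overlap in every panel. Pnck is the panel with 4 Fmr1-/y libraries above the highest wild-type one, and Camk2d and Camk1 are high in Fmr1-/y replicates 4 and 5.

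The levels of the kinases spanned more than 2 orders of magnitude. Divided by exon length, so that genes can be set beside each other, wild-type levels were 1097 ± 72.4 CPM per kilobase (SD) for Camk2a and 502 ± 58.1 for Camk2b. Camkk1 followed at 95.5 ± 9.52, Camk4 at 53.2 ± 2.05, Camkk2 at 41.5 ± 3.31, Camk1d at 38.9 ± 2.45, Camk2g at 33.6 ± 1.86 and Pnck at 31.9 ± 5.01 CPM per kilobase. Camk1, at 10.6 ± 1.07, and Camk2d, at 7.18 ± 1.87 CPM per kilobase, were the lowest. Neighbours in this order had separate wild-type ranges except Camkk2 with Camk1d (36.9 to 45.2 and 35.9 to 41.9 CPM per kilobase) and Camk2g with Pnck (30.4 to 35.5 and 26.8 to 39.01). With the longest transcript as the length in place of all exons, Camk2d came to 11.1 and Camk1 to 10.6 CPM per kilobase, and Pnck to 35.2 and Camk2g to 34.6, so these neighbours changed places. In Fmr1-/y libraries Pnck had a level of 42.5 ± 6.00 CPM per kilobase, where Camkk2 had 38.2 ± 2.72 and Camk1d 36.4 ± 1.82.

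Camk2a, the alpha subunit gene and the main forebrain form of CaMKII, lies on chromosome 18 from 60925307 to 60988152. It had the third highest CPM of all genes tested. Its level was 5596 to 6659 CPM in wild type (median 6282) and 5450 to 6303 CPM in Fmr1-/y (median 5790). Only 1 Fmr1-/y library was above the wild-type median and 2 were below the lowest wild-type library, and the other ranges overlapped. The log2 difference was -0.09 ± 0.06 (SE; edgeR, adjusted p = 0.790), which is 93.9% of the wild-type level with a 95% interval of 85.8 to 102.8%. For an mRNA with at least 227168 reads in every library, the counting error was 0.210% or less, where the coefficient of variation between wild-type libraries was 6.60%.

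Camk2b encodes the beta subunit, which binds actin filaments in dendritic spines (chromosome 11, 5969629 to 6066357). Its level was 1926 to 2667 CPM in wild type (median 2193) and 1610 to 2384 CPM in Fmr1-/y (median 2094). The lowest of all 12 values, 1610 CPM, was in Fmr1-/y replicate 4, and the highest, 2667 CPM, was in wild-type replicate 1. Its log2 difference was -0.10 ± 0.09 (adjusted p = 0.859), with an interval of 81.6 to 106.7% of wild type. It was -0.04 without Fmr1-/y replicate 4 and likewise -0.04 without wild-type replicate 1.

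Camk2g encodes the gamma subunit, which can carry calcium/calmodulin from the membrane to the nucleus (chromosome 14, 20734873 to 20794157). It varied little, from 116.1 to 135.6 CPM in wild type (median 129.8) and from 121.6 to 139.4 CPM in Fmr1-/y (median 132.4). The ranges were nearly the same, with 1 Fmr1-/y library above the highest wild-type library. The log2 difference was 0.04 ± 0.06 (adjusted p = 0.934), with an interval of 94.7 to 111.3% of wild type, the narrowest among the CaMKII genes.

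Camk2d encodes the delta subunit, the main form in heart, and was the most variable of the 10 genes (chromosome 3, 126595487 to 126846326). Its wild-type values were 38.1, 74.3, 65.3, 44.2, 73.7 and 71.4 CPM in replicates 1 to 6. Its Fmr1-/y values were 65.95, 37.9, 50.7, 120.4, 98.4 and 62.2 CPM. Fmr1-/y replicates 4 and 5 stood above every wild-type library, Fmr1-/y replicate 2 was the lowest of all, and the other 3 lay within the wild-type range. The coefficient of variation was 26.1% in wild type and 42.6% in Fmr1-/y, while the counting error of the library with the fewest Camk2d reads (1796) was 2.36%. Its log2 difference was 0.25 ± 0.23 (adjusted p = 0.866). It became -0.17 (adjusted p = 0.881) when Fmr1-/y replicates 4 and 5 were left out together, a choice made after seeing the data, and 0.04 without replicate 4 alone.

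As shares of the summed CaMKII level per kilobase, Camk2a held 67.0 ± 1.81% in wild type and 66.9 ± 1.66% in Fmr1-/y, and Camk2b 30.6 ± 1.87% and 30.3 ± 2.13% (SD; given as values with no test). Camk2g held 2.05 ± 0.129% and 2.25 ± 0.249%, and Camk2d 0.440 ± 0.115% and 0.565 ± 0.273%. The ratio of Camk2a to Camk2b was 2.2 ± 0.189 in wild type (1.95 to 2.43) and 2.22 ± 0.230 in Fmr1-/y (2.02 to 2.66). The library with the ratio of 2.66 was Fmr1-/y replicate 4, which also had the lowest Camk2b share (26.3%) and the highest Camk2g and Camk2d shares (2.64% and 1.02%). The summed level was 1639 ± 119 CPM per kilobase in wild type (1459 to 1816) and 1540 ± 118 in Fmr1-/y (1381 to 1677).

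**Figure D2:**
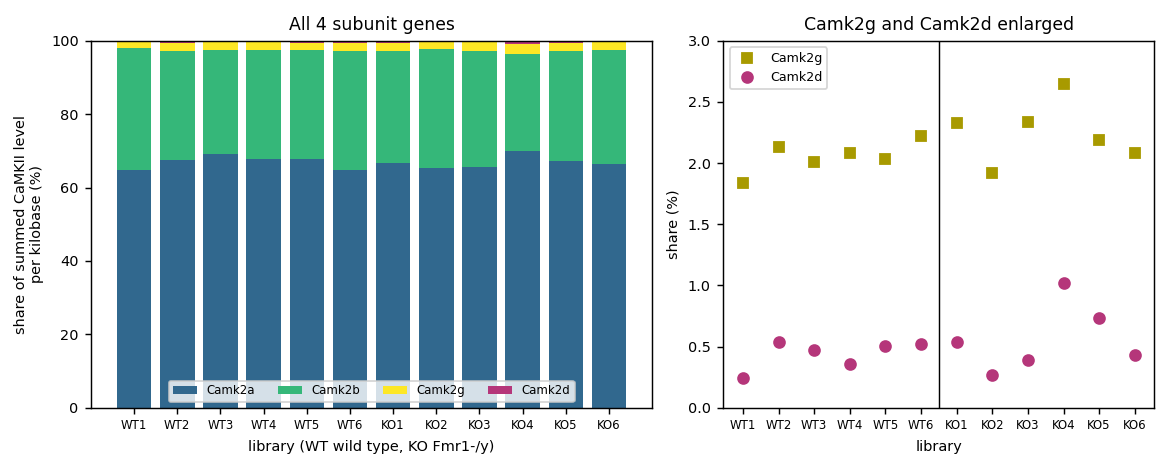
Share of each CaMKII subunit gene in the summed CaMKII level per kilobase (vertical axis, percent) for each library, as stacked bars for the 4 genes on the left and as points for Camk2g and Camk2d alone on the right (WT, wild type; KO, Fmr1-/y). Camk2a and Camk2b together hold nearly the whole sum in every library. KO4 has the highest share of both minor subunit genes.

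Camk4 encodes CaMKIV, the CREB kinase of the cascade (chromosome 18, 32934941 to 33195767). Its wild-type level was among the least variable of the group, 136.4 to 150.9 CPM (median 146.1, coefficient of variation 3.85%). The Fmr1-/y range was wider, 130.9 to 171.6 CPM (median 146.9, coefficient of variation 10.6%). Fmr1-/y replicates 4 (171.6 CPM) and 5 (164.3 CPM) were above all wild-type libraries and 2 other Fmr1-/y libraries were below them. The medians were nearly equal, and the log2 difference was 0.05 ± 0.07 (adjusted p = 0.929, interval 93.8 to 114.1% of wild type). Without replicates 4 and 5 of Fmr1-/y it was -0.04 (adjusted p = 0.911).

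The upstream kinase CaMKK1 is encoded by Camkk1 (chromosome 11, 73016043 to 73042073). It had 283.8 to 372.7 CPM in wild type (median 322.5) and 270.8 to 343.9 CPM in Fmr1-/y (median 322.1). The medians differed by less than 1 CPM and the log2 difference was -0.05 ± 0.08 (adjusted p = 0.940), the largest adjusted p of the 10 genes. Camkk2 encodes CaMKK2, which also phosphorylates the energy sensor AMPK (chromosome 5, 122718380 to 122779522). It had 191.4 to 234.5 CPM in wild type (median 216.6) and 174.5 to 212.3 CPM in Fmr1-/y (median 200.5). None of the 6 Fmr1-/y libraries reached the wild-type median and 2 lay below the wild-type range, but the log2 difference of -0.12 ± 0.07 did not pass (adjusted p = 0.706, interval 83.8 to 101.4% of wild type).

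Camk1d encodes the delta isoform of CaMKI (chromosome 2, 5293457 to 5714860), which had the highest wild-type level per kilobase of the 3 CaMKI genes, while Pnck had the highest in Fmr1-/y. It had 254.8 to 297.0 CPM in wild type (median 273.9) and 235.1 to 271.4 CPM in Fmr1-/y (median 261.9). No Fmr1-/y library was above the wild-type median here either, with 2 below the lowest wild-type library. The log2 difference was -0.09 ± 0.06 (adjusted p = 0.741, interval 86.2 to 101.8% of wild type).

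Camk1 encodes the alpha isoform of CaMKI (chromosome 6, 113334124 to 113343922) and had the fewest reads of the group, 556 to 1706 per library. Wild-type values were 14.5, 15.4, 16.0, 13.7, 17.5 and 17.7 CPM in replicates 1 to 6, and Fmr1-/y values 18.9, 15.2, 14.2, 24.4, 26.2 and 16.1 CPM. Fmr1-/y replicates 1, 4 and 5 exceeded the highest wild-type value and the other 3 lay inside the wild-type range. Camk1 had a log2 difference of 0.28 ± 0.14 (adjusted p = 0.651, interval 98.8 to 148.9% of wild type). It was 0.17 without Fmr1-/y replicate 5 and 0.03 when replicates 4 and 5 were left out together.

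Camk2d, Camk4 and Camk1 shared this feature, with Fmr1-/y replicates 4 and 5 holding their 2 highest values among the 12 libraries. The CA3 pyramidal marker list, 3 genes, was also highest in these libraries, with sums of 50.2 and 54.1 CPM where the other 10 libraries had 36.0 to 44.9 CPM. Among those 10 the match was seen in part. Wild-type replicate 1 had the lowest wild-type CA3 sum (37.0 CPM) and Camk2d (38.1 CPM), with 139.1 CPM of Camk4 and 14.5 CPM of Camk1. Fmr1-/y replicate 1, with a CA3 sum of 38.5 CPM, had the lowest Camk4 of all (130.9 CPM) but 18.9 CPM of Camk1. Wild-type replicate 4 had a CA3 sum of 44.5 CPM with the lowest wild-type Camk4 (136.4 CPM) and Camk1 (13.7 CPM), and 44.2 CPM of Camk2d. Fmr1-/y replicate 6 had the lowest CA3 sum, 36.0 CPM, with a Camk4 level of 149.9 CPM. The summed CA1 list was 1621 CPM in Fmr1-/y replicate 4, the lowest of all libraries, and 1921 CPM in replicate 5. No gene of the CA3 list had an unadjusted p under 0.05 between the genotypes, and none was at 0. Its part in the 3 kinase genes was not tested.

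**Figure D3:**
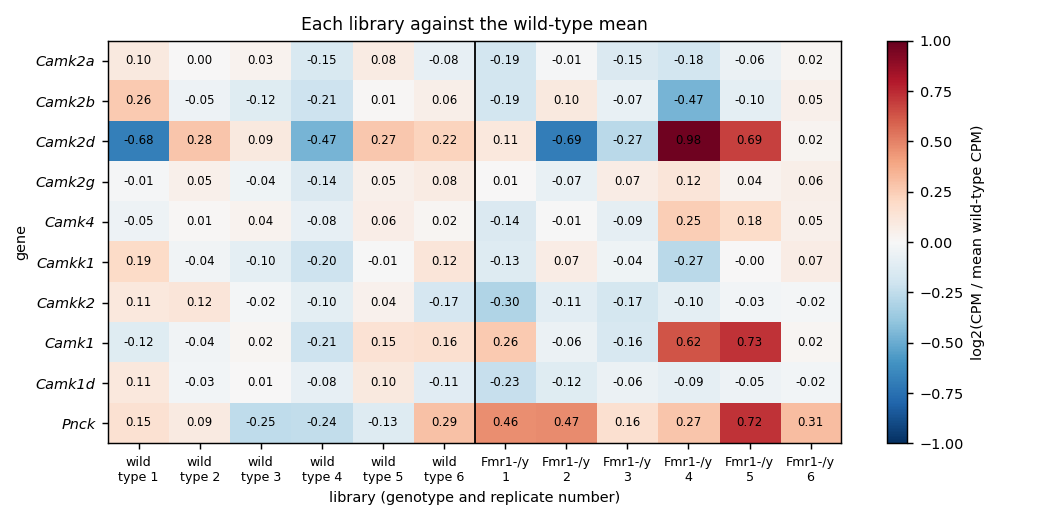
Log2 ratio of each library's CPM to the wild-type mean CPM, for 10 genes (rows) in 12 libraries (columns, labelled by genotype and replicate), printed in each cell and shown by colour from blue (lower) to red (higher). Camk2d and Camk1 are high in Fmr1-/y replicates 4 and 5, and Pnck is positive in all 6 Fmr1-/y libraries and in 3 wild-type libraries.

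Pnck encodes CaMKI beta, a kinase found mainly in brain, and lies on the X chromosome from 73655992 to 73660117. Wild-type values were 60.1, 57.4, 45.4, 45.6, 49.4 and 66.05 CPM in replicates 1 to 6. Fmr1-/y values were 74.3, 75.0, 60.5, 65.3, 89.3 and 66.9 CPM. All 6 Fmr1-/y libraries were above the wild-type median of 53.4 CPM, and 4 were above the highest wild-type library. The groups overlapped through wild-type replicate 6 and Fmr1-/y replicates 3 and 4. The mean CPM was 54.0 ± 8.49 in wild type and 71.9 ± 10.2 in Fmr1-/y (SD), with 1851 to 5824 reads per library.

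The log2 difference of Pnck was 0.41 ± 0.11, which is 133.2% of the wild-type level with a 95% interval of 114.1 to 155.4%. Its unadjusted p of 0.00112 was the 76th smallest of the 17823, and its adjusted p in edgeR was 0.263. DESeq2 gave the same log2 difference of 0.41 and an adjusted p of 0.0495. Over the alternatives tried, the log2 difference ran from 0.34 to 0.48 and the adjusted p from 0.00998 to 0.594. The DESeq2 call was lost when wild-type replicate 2, 3, 4 or 5 or Fmr1-/y replicate 1, 2 or 5 was left out, with adjusted p up to 0.217, and held in the 5 fits without each of the others. The direction was positive in every fit.

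The 3 libraries with the highest Pnck, Fmr1-/y replicates 5, 2 and 1, also had the highest summed level of the endothelial markers, 38.7, 37.3 and 34.4 CPM. That list of 3 genes summed to 19.0 to 29.6 CPM in wild type and 24.1 to 38.7 in Fmr1-/y, with 2 of the 3 genes higher at an unadjusted p under 0.05 (edgeR) and none at 0. Within wild type the order differed in part, and replicate 4 had the highest endothelial sum (29.6 CPM) with 45.6 CPM of Pnck. Wild-type replicate 1 came next in endothelial sum (26.9 CPM) and had 60.1 CPM of Pnck. Wild-type replicates 3 and 5 had the lowest endothelial sums, 20.5 and 19.0 CPM, with 45.4 and 49.4 CPM of Pnck. Wild-type replicate 6 had the highest Pnck of its group (66.05 CPM) and an endothelial sum of 24.0 CPM. Within Fmr1-/y the order of the libraries by endothelial sum and by Pnck was nearly the same. Replicates 6, 3 and 4 had the lowest endothelial sums, 27.1, 25.7 and 24.1 CPM, and also the lowest Pnck, 66.9, 60.5 and 65.3 CPM. The astrocyte list (5 genes, none at 0) summed to 697.8 to 845.8 CPM in wild type and 762.5 to 1188 in Fmr1-/y, was highest in Fmr1-/y replicates 1 (1188 CPM) and 2 (1041 CPM), and also had 2 genes higher at an unadjusted p under 0.05. The choroid plexus list had 2 of its 3 genes higher at that level, with its highest sum, 17020 CPM, in Fmr1-/y replicate 1. The part of these lists in the Pnck values was not tested. Pnck lies 4.94 Mb from Fmr1, and the 34 tested genes between them included 8 with an unadjusted p under 0.05, 4 lower and 4 higher in Fmr1-/y, where 7.96% of all genes had one. None of the 34 passed the adjusted threshold in edgeR. Its neighbours Dusp9 and Slc6a8, chosen after their values were seen, had log2 differences of -0.16 ± 0.41 (adjusted p = 0.961) and 0.06 ± 0.12 (adjusted p = 0.950).

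**Figure D4:**
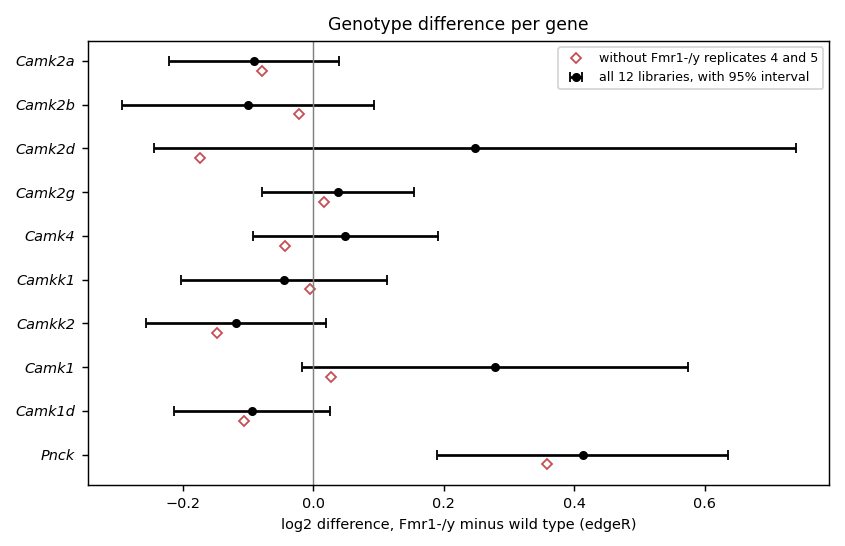
Log2 difference of Fmr1-/y minus wild type (horizontal axis) for each gene from edgeR with its 95% interval (black), and the value without Fmr1-/y replicates 4 and 5 (red diamonds). The interval of Pnck, 0.19 to 0.64, is the one that lies wholly on one side of 0, before any adjustment over genes. Camk2d and Camk4 change sign without the 2 libraries.

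The genes around these kinases were examined as 7 lists with 65 genes, all of which were tested. In edgeR none of the 65 passed the adjusted threshold (lowest adjusted p = 0.335), nor did any in DESeq2, and none had genotypes without overlap. At an unadjusted p under 0.05 there were 12, of which 11 had the lower mean in Fmr1-/y, where the shares over all genes were 3.67% lower and 4.29% higher. The count of 12 was 6 without wild-type replicate 1 or without Fmr1-/y replicate 1 and 7 without wild-type replicate 5, and ran from 6 to 13 over the 12 libraries left out in turn.

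The list of synaptic partners and substrates of CaMKII held 6 of these 11, out of its 12 genes. Like the others, this list was chosen with earlier results of these data known. Its log2 differences were negative for 10 genes and positive for 2, with a median of -0.13. The summed CA1 markers had a median of 2205 CPM in wild type and 1920 in Fmr1-/y, with 1 of the 5 genes lower at an unadjusted p under 0.05, and the astrocyte, endothelial and choroid plexus lists each had 2 genes higher. Their part in the list was not tested. Grin2a encodes an NMDA receptor subunit and had 25.8 ± 3.48 CPM in wild type and 18.6 ± 4.73 in Fmr1-/y, a log2 difference of -0.47 ± 0.14 (adjusted p = 0.335). Lrrc7 encodes densin, a scaffold that binds CaMKII in the postsynaptic density, and had 55.7 ± 5.41 CPM and 47.3 ± 4.05 CPM, a log2 difference of -0.24 ± 0.08 (adjusted p = 0.394). Grin2b, Gria1 and Dlg4, named after their values were seen, also had an unadjusted p under 0.05. Grin2b encodes the NMDA receptor subunit to which active CaMKII docks, and its log2 difference was -0.30 ± 0.12 (adjusted p = 0.512). Gria1, an AMPA receptor subunit phosphorylated by CaMKII, had -0.18 ± 0.08 (adjusted p = 0.589), and Dlg4, which encodes the scaffold PSD-95, had -0.16 ± 0.08 (adjusted p = 0.621). Genes of the list without such a p were Kalrn, Kcnd2, Cacna1c, Tiam1, Syn1 and Grin1, also named after their values were seen. Their log2 differences ran from -0.11 (Kalrn) to 0.11 (Tiam1). The NMDA receptor subunit gene Grin1 had -0.04 ± 0.07 (adjusted p = 0.940), and Syn1 had 0.06 ± 0.07 (adjusted p = 0.899). In each of the genes named here the ranges of the genotypes overlapped.

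Calmodulin itself and the proteins that buffer it form a list of 6 genes, with a median log2 difference of -0.06. Pcp4, a small protein that speeds calcium exchange on calmodulin, was the 1 pathway gene with a higher mean and an unadjusted p under 0.05. It had 28.4 ± 1.82 CPM in wild type and 38.0 ± 10.4 in Fmr1-/y (23.8 to 54.0 CPM), a log2 difference of 0.42 ± 0.14 (adjusted p = 0.410). The Fmr1-/y range enclosed the whole wild-type range of 26.1 to 31.0 CPM. The calmodulin gene Calm3 had a log2 difference of -0.08 ± 0.07 (adjusted p = 0.842).

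Among close relatives and inhibitors (4 genes, median -0.02), Camk1g, the gamma isoform of CaMKI, had 36.6 ± 3.50 CPM in wild type and 31.1 ± 4.51 in Fmr1-/y. Its log2 difference was -0.24 ± 0.10 (adjusted p = 0.549), of the opposite sign to that of Pnck and Camk1. Camkv, a catalytically inactive CaM kinase relative at spines, had a log2 difference of -0.12 ± 0.09 (adjusted p = 0.815). The CaMKII inhibitor genes Camk2n1 and Camk2n2, which lie outside the rule for naming genes, had 0.08 ± 0.09 (adjusted p = 0.903) and 0.17 ± 0.15 (adjusted p = 0.854).

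None of the 11 phosphatase genes had an unadjusted p under 0.05 in edgeR, and their median log2 difference was -0.04. Ppp1r9b encodes spinophilin, which holds protein phosphatase 1 in spines, and had -0.11 ± 0.06 (adjusted p = 0.694). Ppm1e encodes a phosphatase that removes the activating phosphate from CaM kinases and had -0.11 ± 0.07 (adjusted p = 0.773).

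Downstream of the cascade, the list of 12 nuclear and metabolic targets had a median log2 difference of -0.09 and 1 gene with an unadjusted p under 0.05. This was Crebbp, which encodes the CREB coactivator CBP, at 27.7 ± 4.04 CPM in wild type and 23.0 ± 3.38 in Fmr1-/y (log2 difference -0.27 ± 0.11, adjusted p = 0.532). The CREB coactivator gene Crtc2 had 0.21 ± 0.10 (adjusted p = 0.639). The 12 CREB target genes had a median of -0.03, and 2 had an unadjusted p under 0.05. These were Nr4a2, an activity-induced nuclear receptor (-0.20 ± 0.09, adjusted p = 0.610), and Nptx2, a secreted pentraxin that clusters AMPA receptors (-0.27 ± 0.13, adjusted p = 0.621).

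The 8 other calmodulin-regulated or related kinases had a median log2 difference of -0.03. Dclk2, a doublecortin-like kinase of neurons, had -0.18 ± 0.08 (adjusted p = 0.539), and Dapk1, a death-associated kinase that binds calmodulin, had -0.13 ± 0.06 (adjusted p = 0.647).

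**Figure D5:**
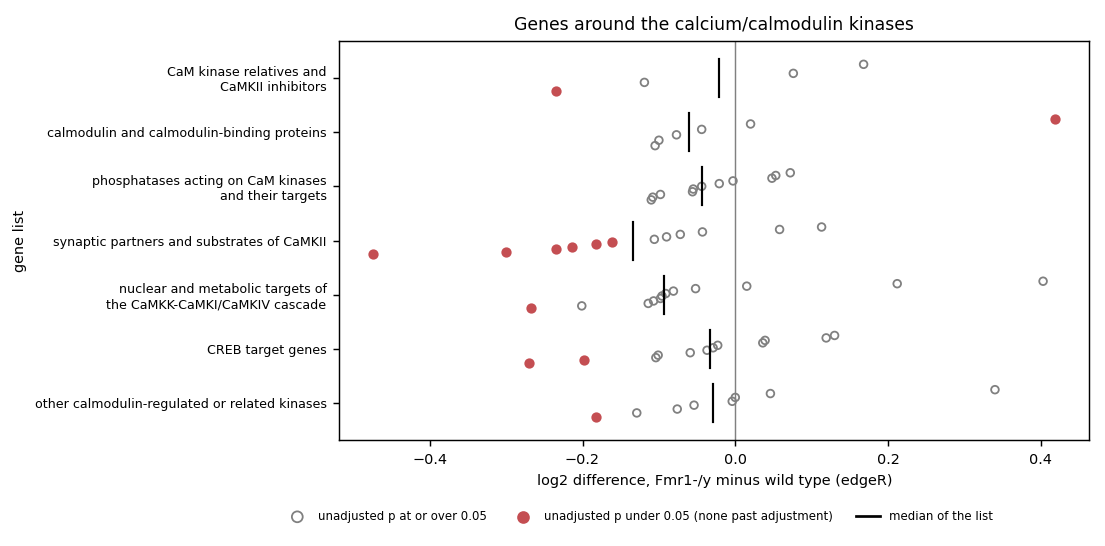
Log2 difference of Fmr1-/y minus wild type (horizontal axis, edgeR) for 65 genes in 7 lists around the CaM kinases. Each circle is a gene, filled red where the unadjusted p is under 0.05, and the black bar is the list's median. The list of synaptic partners and substrates of CaMKII has 6 red points, all left of 0, and a median of -0.13.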

How the data were processed

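Per the labels and the methods of the study, the authors aligned stranded reads to mm10 with TopHat2 2.1.1 and Bowtie2 2.2.8 and counted them per gene with HTSeq 0.6.1p1. The deposited table holds raw counts, without normalization, for 24079 genes in 12 libraries (39400980 to 65565479 reads each). Genes with fewer than 15 reads in total were removed, as in the study. Genotypes were compared with edgeR 4.0.16 in R 4.3.3 (TMM, quasi-likelihood, genotype only), and DESeq2 1.42.0 and limma 3.58.1 voom were alternatives. The SE is the log2 difference divided by the square root of F, and intervals use the t distribution. CPM per kilobase uses GENCODE exon lengths. Coordinates are RefSeq on GRCm38. The fits were tested on simulated data with 200 changed genes, each changed by more than any CaM kinase gene here. That test does not show how well differences of the size reported would be found. Counting errors cover the sampling of reads only. The genes and lists were chosen with earlier results of these data known. The named genes are all 10 members, the 2 with the smallest p in each list, any past the threshold, and Fmr1, and others are named as such. The values of 1 listed gene are not reported here.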

Additional observations from a re-analysis of the deposited data

How the results depend on the processing

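Each CaM kinase gene's log2 difference in edgeR was compared with alternatives (other scaling, tool, low-count filter, replicate block or left-out libraries). Of 212 comparisons, 204 kept the direction and side of the threshold of the main edgeR fit. These 204 include the DESeq2 fits without 1 library in which Pnck lost its DESeq2 call. Among the log2 differences, such fits were counted for Pnck alone. The 2 comparisons that changed sign were Camk2d (-0.17) and Camk4 (-0.043), both with Fmr1-/y replicates 4 and 5 left out together, a choice made after seeing the data. The 6 that newly passed were Pnck in DESeq2 and in 5 of the 12 DESeq2 fits that each left out a library (also added after seeing the data). The number of CaM kinase genes past the threshold was 0 in edgeR, 1 in DESeq2, 0 to 1 in those 12 fits, and 0 in edgeR without any 1 library. Over all genes it was 4 in edgeR, 84 in DESeq2, 2 to 6 with a library left out, and 2 without Fmr1-/y replicates 4 and 5. The cause was not tested. None of the pathway genes passed in edgeR under any alternative, in limma, or in DESeq2 with all libraries, and they were not counted in the DESeq2 fits without a library. The labels do not say whether the shared replicate numbers pair the libraries. Deviations of same-numbered libraries over all genes correlated at -0.081 to 0.090 (0 of 6 pairs over 0.1), which by itself cannot show whether they were paired. With the replicate number as a block, 0 CaM kinase genes, 0 pathway genes and 4 genes over all passed, and the adjusted p of Pnck was 0.137. An unadjusted p under 0.05 in edgeR was reached by 1496 genes with the block and 1418 without it. With library totals in place of TMM the median log2 difference of all genes moved to 0.03. Leaving out 1 library moved Camk2d from 0.04 (without Fmr1-/y replicate 4) to 0.38, and Camk2b from -0.14 to -0.037 (without Fmr1-/y replicate 4). The depth limited Camk1 the most, with a counting error of 4.24% at its lowest count of 556 reads.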
